A study of Nothobranchius furzeri with 20 samples.

Results

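The genes described here are those whose transcript level in livers of exercised 9-week-old killifish lay at one end of the whole series. Levels in counts per 1000000 (CPM), with edgeR's TMM correction for library composition, were compared over all 20 libraries. A gene was taken if its mean level was 1 CPM or more and under 1000 CPM, if all 5 exercised 9-week libraries lay above, or all below, the other 15, and if their mean differed at least 1.5-fold from each other set of libraries after 0.5 CPM was added to every mean. The other sets were the unexercised 9-week group, the 2 runs of consecutive title numbers within the 27-week group, and that group as a whole. Of 26739 gene identifiers, 14161 were within the range of levels and 122 met the whole rule, 22 of them above the other 15 libraries (the higher members) and 100 below (the lower members). No ranking was needed, since the 122 stayed under the limit of 150. The rule used the values of all 20 libraries, so the distance of the exercised 9-week livers from the others is a description and carries no test. The working name, genes apart only in exercised 9-week livers, states the rule and does not mean that the other sets were alike. Of the 122 members, 110 also differed between 27-week titles JM132 to JM136 and unexercised 9-week livers (edgeR adjusted p under 0.05, 51.3% of all genes tested). Between the 2 runs 102 differed (50.4%). Between titles JM140 to JM144 and unexercised livers 20 differed, which is 16.4% of the members and near the 14.8% of all genes. These counts are not independent of how the members were chosen, so they are a description and not a test of the name.

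The turquoise killifish is an annual fish whose short life makes it a model of vertebrate ageing. The liver stores and releases glucose, handles lipids and secretes most plasma proteins. During swimming, muscle takes up glucose and fatty acids from the blood, and the liver is one of the organs that replace them.

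All libraries were made from liver RNA of male Nothobranchius furzeri of strain MZM-04/10p, a line derived from wild fish. They comprise 5 libraries at 9 weeks with swim-tunnel exercise, 10 at 27 weeks with swim-tunnel exercise and 5 at 9 weeks with no perturbation. The 27-week titles fall into a lower-numbered run (titles JM132 to JM136, replicates 1 to 5) and a higher-numbered run (JM140 to JM144, replicates 6 to 10) under the same labels, and no condition was assigned to either. The exercised and unexercised 9-week libraries also carry separate title runs, JM117 to JM121 and JM124 to JM128, so exercise at 9 weeks and anything that follows the titles cannot be told apart, and 27-week fish without exercise were not analysed here. Whether every library came from its own fish is not stated, and the spread behind each p-value is that of the libraries, which may be technical. In bulk liver, fewer cells of a type and less RNA per cell cannot be told apart.

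Gene names are not given beside the identifiers, of which 0 of 26739 matched the RefSeq table used here (assembly NfurGRZ-RIMD1). The functions of the members are therefore not given, no defining marker of liver or of any other tissue could be looked up, and 2 members of each direction are given by identifier. Depth, in units of 1000000 counts, was 34.0 to 38.8 in the exercised 9-week libraries, 28.2 to 44.6 and 24.8 to 34.9 in the lower- and higher-numbered 27-week runs, and 22.4 to 38.4 in the unexercised 9-week libraries. The TMM factor, which rises when a few transcripts take a smaller share of the counts, was 0.894 ± 0.023 (SD, n = 5) in the exercised 9-week libraries. It was 1.24 ± 0.235 in the lower-numbered 27-week run, 0.867 ± 0.022 in the higher-numbered run and 1.06 ± 0.120 in the unexercised 9-week libraries (SD, n = 5 each).

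Most members were lower, not higher, in exercised 9-week livers, by a median of less than 2-fold against the nearest set. The 100 lower members had a median level of 3.75 CPM in exercised 9-week livers, against 20.2 CPM in the lower-numbered and 8.78 CPM in the higher-numbered 27-week run and 7.16 CPM in unexercised 9-week livers. With 0.5 CPM added to every mean, the exercised 9-week mean of these members was 0.217 of that in the lower-numbered run. It was 0.532 of the higher-numbered run and 0.586 of the unexercised livers (medians over members). The 22 higher members had a median level of 20.6 CPM in exercised 9-week livers, against 6.36 and 11.1 CPM in the lower- and higher-numbered 27-week runs and 12.9 CPM in unexercised 9-week livers. Their median fold, also with 0.5 CPM added, was 3.39 over the lower-numbered run, 2.01 over the higher-numbered run and 1.67 over the unexercised livers. The median distance was thus widest from the lower-numbered 27-week run and narrowest from the unexercised group in both directions. The unexercised mean was the nearest of the means compared for 17 of the 22 higher and 70 of the 100 lower members, the higher-numbered run for 5 and 29, and the lower-numbered run for 0 and 1.

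**Figure D1:**
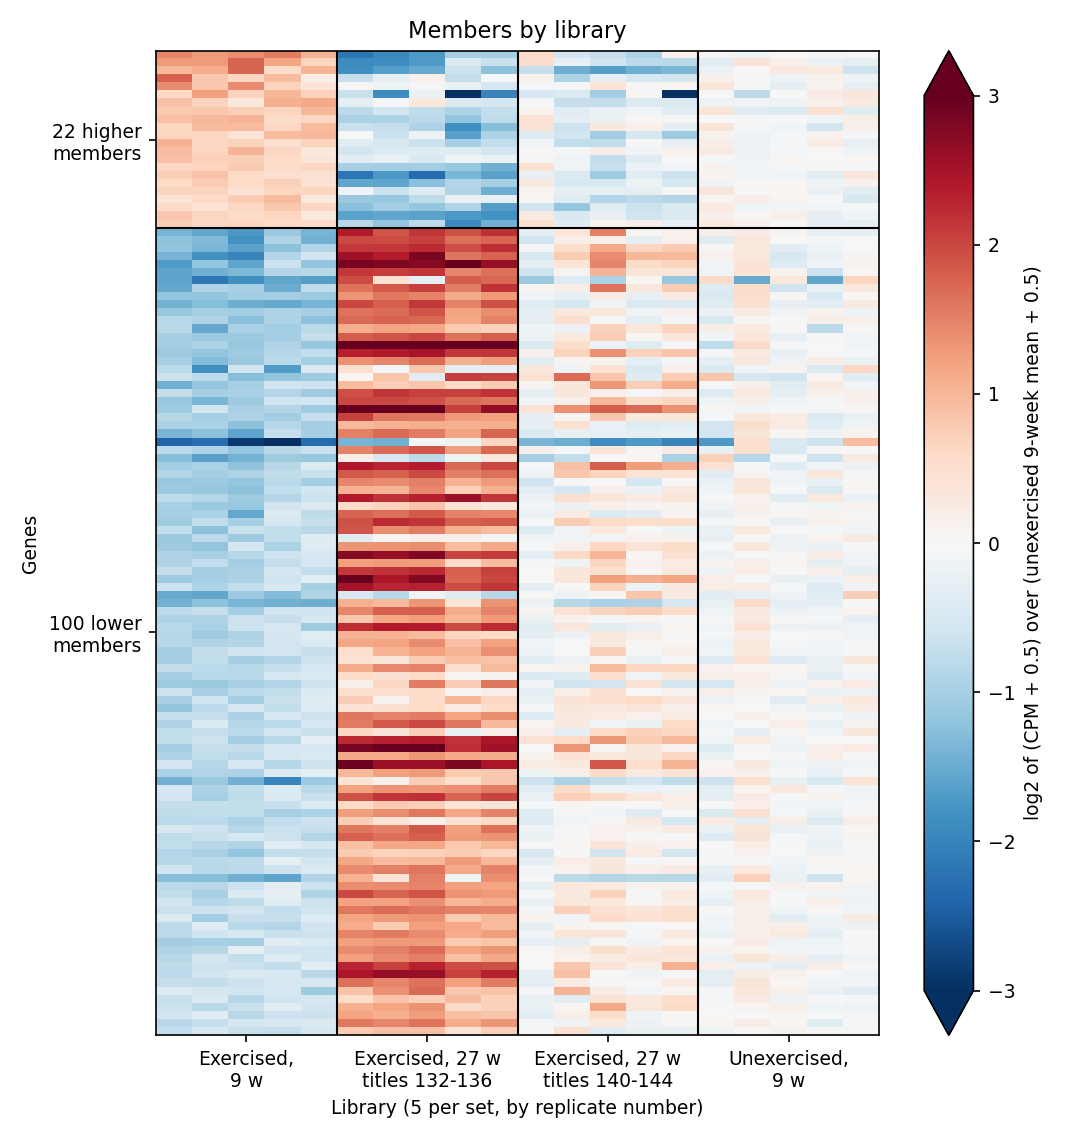
Each row is 1 of the 122 members and each column 1 library, and colour is the log2 ratio of CPM to the mean of the unexercised 9-week libraries, after 0.5 CPM was added to both. The 100 lower members are blue in the exercised 9-week libraries and mostly red in the lower-numbered 27-week run. Their median per library is near 0 in the higher-numbered run (-0.17 to 0.33) and in the unexercised libraries, which are the reference (-0.12 to 0.21). Single members lie farther from 0 in both.

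The separation was narrow for most members. Of all genes within the range of levels, 1.91% lay below the other 15 libraries in all 5 exercised 9-week libraries and 0.876% above them in all 5, at any fold. Between the 2 libraries that faced each other across the divide, the median fold was 1.12 for lower members (1.001 to 1.77) and 1.08 for higher members (1.003 to 1.35). This fold was under 1.1 for 45 of the 100 lower and 13 of the 22 higher members, and it reached 1.5 for 3 lower and 0 higher members. The mean differed at least 2-fold from the nearest other mean in 13 lower and 3 higher members. At the threshold of 1.5-fold, the lower member just inside had a ratio of 1.501 (3.88 CPM in exercised 9-week livers, against 6.07 CPM in the higher-numbered run) and the gene just outside 1.495 (26.3 CPM against 39.6 CPM in unexercised livers). The higher member just inside had 1.501 (186 CPM in exercised 9-week livers, against 123.9 CPM in the higher-numbered run) and the gene just outside 1.498 (8.72 CPM against 5.66 CPM in unexercised livers). These folds and ratios were computed after 0.5 CPM was added to each value, and the levels are printed without it.

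**Figure D2:**
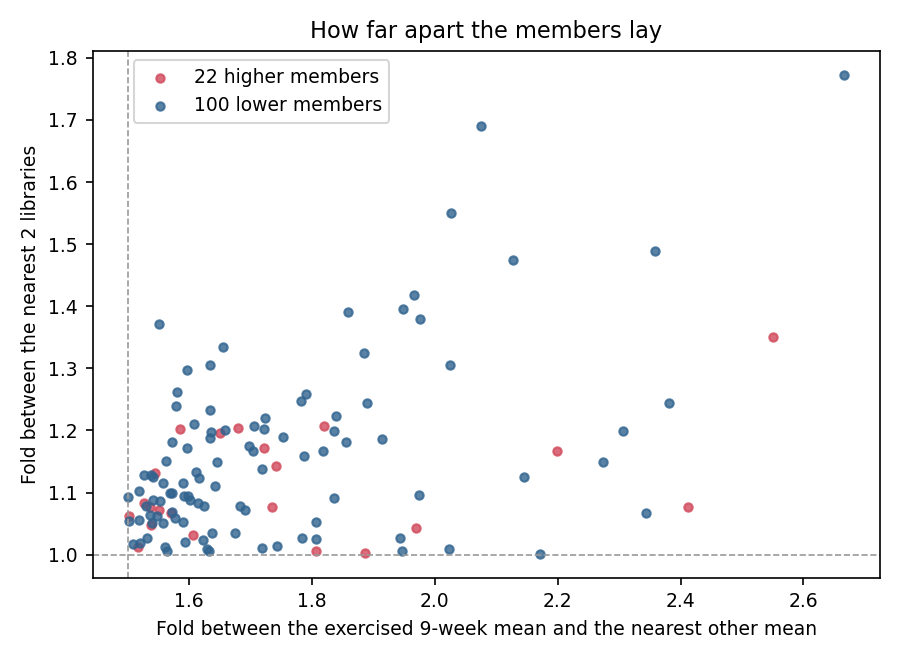
Each point is 1 member, with the fold between the exercised 9-week mean and the nearest other mean on the x axis and the fold between the nearest library of each side on the y axis. Most points crowd towards the lower left corner, where a mean difference of 1.5-fold meets libraries that nearly touch (dashed lines, 1.5 and 1).

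A few libraries stood at the divide. Exercised 9-week replicate 5 was the library nearest to the others in 47 of the 100 lower and 11 of the 22 higher members, and replicate 4 in 31 and 6. On the other side the nearest library was 27-week replicate 6 (title JM140) for 19 lower and 7 higher members. The unexercised replicates 3, 1 and 4 were nearest for 21, 19 and 18 lower members. The number of genes that met the rule changed most without exercised 9-week replicate 5, when it was 263, 63 higher and 200 lower. Without exercised replicate 4 or unexercised replicate 1 the higher genes numbered 34 and 36. Without 27-week replicate 6 the rule found 146 genes, and without unexercised replicate 3 it found 29 higher and 106 lower ones. The balance of directions depended on the scaling. When library totals replaced TMM, 3 genes met the rule as higher and 169 as lower, and 88 of these 172 were among the 122 members. With DESeq2 size factors 20 were higher and 100 lower, and with upper-quartile scaling 31 were higher and 83 lower.

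The library values of the lower members formed 3 levels. Their median log2 ratio to the unexercised mean was -0.89, -0.92, -0.95, -0.73 and -0.64 in exercised 9-week replicates 1 to 5. It was 1.15 to 1.53 in the lower-numbered 27-week run, -0.17 to 0.33 in the higher-numbered run and -0.12 to 0.21 in the unexercised libraries. The higher-numbered run and the unexercised 9-week libraries thus overlapped, and the lower-numbered run stood alone on the side away from the exercised 9-week livers. The rule itself placed the exercised 9-week libraries lowest, and the unexercised ones served as their own reference. The summed level of the 100 lower members was 581 ± 63.4 CPM (SD, n = 5) in exercised 9-week livers, 2930 ± 367 and 1250 ± 193 CPM in the lower- and higher-numbered 27-week runs, and 1080 ± 104 CPM in unexercised 9-week livers (SD, n = 5 each). As a share of all counts, with no scaling, they made up 0.052% ± 0.0064, 0.358% ± 0.027, 0.108% ± 0.015 and 0.115% ± 0.023 in the same order of sets (SD, n = 5 each).

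Again with the exercised 9-week libraries placed by the rule, the higher members were graded in the opposite direction. Their median log2 ratio to the unexercised mean was 0.79, 0.74, 0.71, 0.65 and 0.63 in exercised 9-week replicates 1 to 5. It was -0.99 to -0.77 in the lower-numbered 27-week run, -0.52 to 0.07 in the higher-numbered run and -0.10 to 0.11 in the unexercised libraries. Within the higher-numbered run, replicate 6 (0.07) lay apart from replicates 7 to 10 (-0.52 to -0.33). The summed level of the 22 higher members was 975 ± 30.5 CPM in exercised 9-week livers, 299 ± 40.1 and 487 ± 82.8 CPM in the lower- and higher-numbered runs and 587 ± 43.2 CPM in unexercised 9-week livers (SD, n = 5 each). The 3 members with most counts held 49.9% of that sum in exercised 9-week livers, so it describes them more than the rest.

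**Figure D3:**
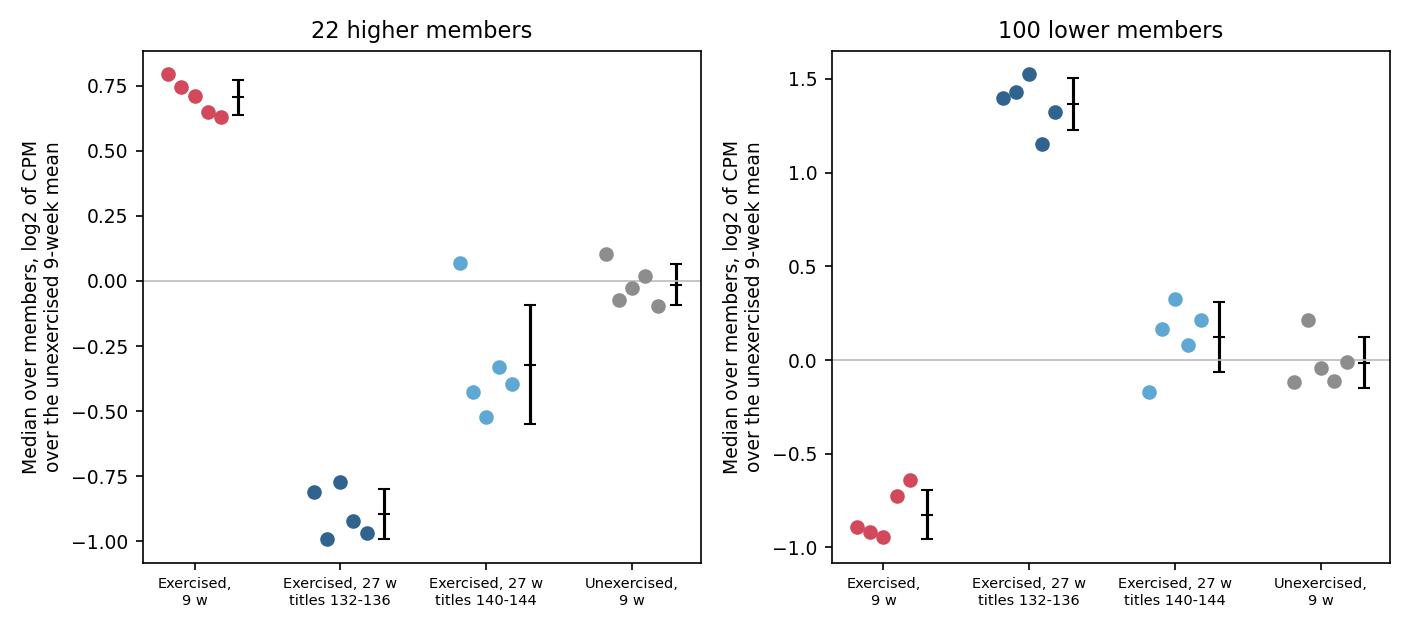
Each point is 1 library, and its height is the median over members of the log2 ratio of CPM to the unexercised 9-week mean, for the 22 higher members on the left and the 100 lower members on the right. Bars are means and SD of 5 libraries. The lower-numbered 27-week run (titles JM132 to JM136) is farthest from the exercised 9-week livers in both panels.

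Most members also differed among the 15 libraries that they were chosen to lie away from. The rule set no contrast between these libraries, but it used their values, since each had to lie on one side of the exercised 9-week livers. The tests among them are therefore not independent of how the members were chosen, and their counts are given as a description beside those of all genes. Among genes chosen only for the lowest exercised 9-week mean, the lower-numbered run was already the highest in 76.7%. In the lower-numbered 27-week run, 92 of the 100 lower members were higher than in unexercised 9-week livers and 0 were lower (edgeR's quasi-likelihood test, adjusted p under 0.05, where 26.5% of all 17118 genes tested were called higher and 24.9% lower). An unadjusted p under 0.05 for a lower level was found for 1 lower member, and DESeq2 and limma-voom called 0 and 1 lower. The median log2 fold change of the lower members was 1.43, over a range of -0.56 to 3.54, beside -0.01 over all genes tested. Of the 22 higher members, 18 were lower in the lower-numbered run than in unexercised livers (24.9% of all genes) and 0 were higher by edgeR, by DESeq2, by limma-voom or at an unadjusted p under 0.05, with a median log2 fold change of -1.06 (-2.02 to -0.17). In all, 110 of the 122 members were called (51.3% of all genes), and all 122 had passed the filter on low counts.

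The 2 runs of the 27-week group also differed from each other in most members. In the lower-numbered run 88 of the 100 lower members were higher than in the higher-numbered run (26.9% of all genes tested) and 1 was lower (23.5%), with a median log2 fold change of 1.33 (-0.84 to 3.58). The lower-numbered run also had 13 of the 22 higher members at a lower level (23.5%) and 0 at a higher one by edgeR, DESeq2, limma-voom or an unadjusted p under 0.05, with a median of -0.58 (-1.71 to 0.26). In all, 102 of the 122 were called (50.4%). These counts and the preceding ones share the lower-numbered run. With each of the 20 libraries left out singly, 100 to 105 members were called between the runs and 105 to 111 between the lower-numbered run and the unexercised group. The 122 members were not chosen anew for these counts, and a library of neither compared set entered only through the shared fit. The narrow ranges are therefore partly built in. The mean TMM factor given above was highest in the lower-numbered run. With library totals 99 members were higher and 7 lower between the runs, where 8264 of all genes were higher and 1541 lower and the median log2 fold change of all genes was 0.59, against 0.03 with TMM. Against the unexercised group 95 members were higher and 14 lower with library totals, where 5695 of all genes were higher and 2729 lower and the median was 0.24, against -0.01 with TMM. Within the lower-numbered run, replicates 4 and 5 had TMM factors of 1.52 and 1.47, and the other 3 libraries 1.04 to 1.14. Without replicates 4 and 5, 102 members were called between the runs, among 7409 genes, and 107 against the unexercised group, among 7834 genes.

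In 72 of the 100 lower members, all 5 libraries of the lower-numbered run lay above all other 15 libraries, as did 1736 of the genes within the range of levels (12.3%). In 10 of the 22 higher members all 5 lay below all others (9.30% of genes). These background genes were not chosen by their level in exercised 9-week livers, so the shares do not compare like with like. By set means, the lower-numbered run was the highest for 94 lower members. The 76.7% given above is over the 3920 genes whose exercised 9-week mean was the lowest of the 4. For 19 of the 22 higher members it was the lowest, as it was for 70.1% of the 3476 genes whose exercised 9-week mean was the highest. The commonest order, in 68 lower members, placed exercised 9-week livers lowest, then unexercised 9-week livers, then the higher-numbered and then the lower-numbered run. In another 26 the unexercised livers and the higher-numbered run changed places. The remaining 6 lower members had their highest mean in the higher-numbered run (3) or in unexercised livers (3). The mirrored order held for 14 higher members.

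**Figure D4:**
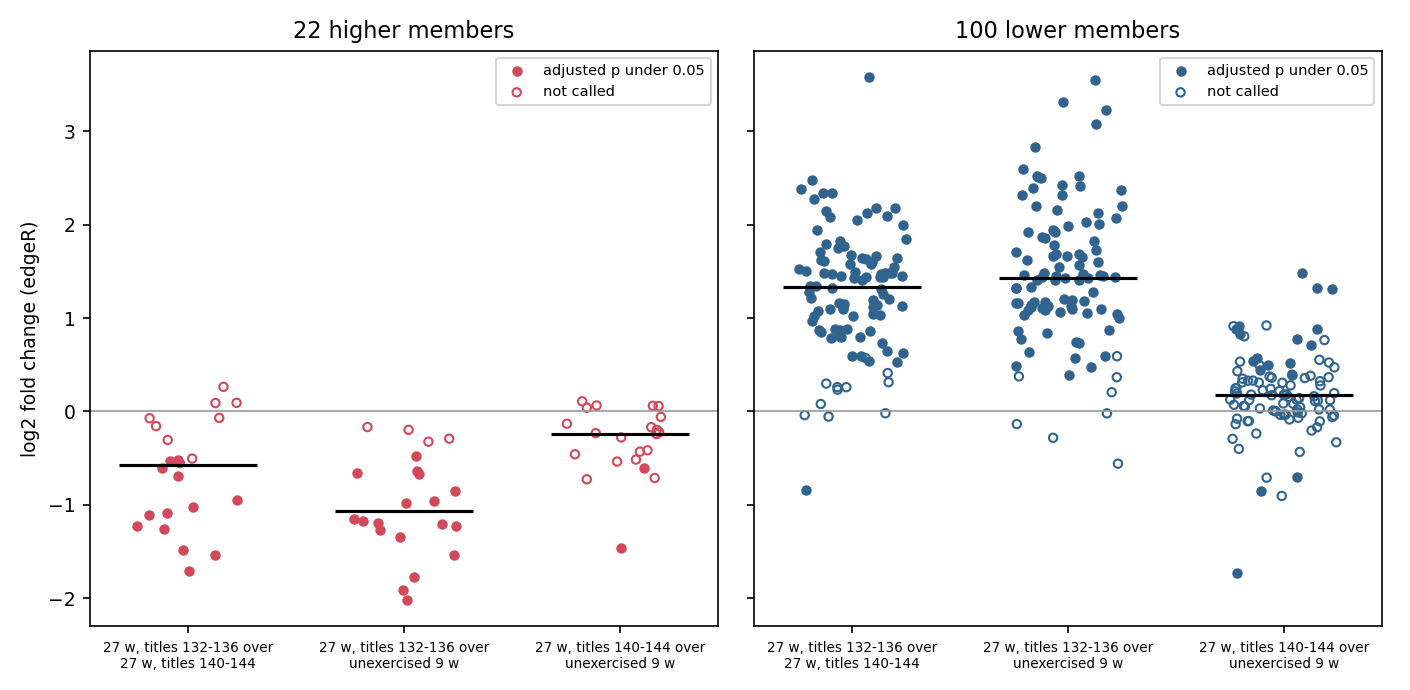
Each point is 1 member and its height is edgeR's log2 fold change in a comparison that leaves the exercised 9-week livers out, with the 22 higher members on the left and the 100 lower on the right. Filled points passed an adjusted p of 0.05 and black lines are medians. The lower members lie mostly above 0 where the lower-numbered 27-week run is compared, with medians of 1.33 and 1.43. Where the higher-numbered run is set against unexercised 9-week livers their median is 0.18, over a range of -1.73 to 1.48.

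Fewer members differed between the higher-numbered 27-week run and unexercised 9-week livers. Of the lower members 15 were higher (7.48% of all genes tested) and 3 lower (7.30%), with a median log2 fold change of 0.18 (-1.73 to 1.48). Of the higher members 2 were lower (7.30%) and 0 higher by edgeR, DESeq2, limma-voom or an unadjusted p under 0.05, with a median of -0.24 (-1.47 to 0.11). As shares, 15% of lower members were called higher and 3% lower, and 9.09% of higher members were called lower. The genes of the background were not chosen by their level in exercised 9-week livers. The shares therefore do not compare like with like, and nothing is read from their differences. The 20 calls in all were 16.4% of the members, near the 14.8% of all genes. They fell to 13 and 10 without unexercised replicates 2 and 3, and to 11 and 13 without 27-week replicates 8 and 10. Over all genes the calls fell too, from 2529 to 1752, 1539, 1654 and 1579 in the same order of settings. With library totals 5 members were higher and 16 lower, so the balance of calls turned with the scaling. It did so over all genes too, of which 484 were higher and 3805 lower, with a median log2 fold change of -0.32, against -0.02 with TMM. A p that misses the threshold does not show that these livers had the same level.

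As one group, the 27-week livers of exercised fish were higher than unexercised 9-week livers in 63 of the 100 lower members (10.8% of all genes tested) and lower in 0, with 0 also at an unadjusted p under 0.05 and by DESeq2, and 1 by limma-voom. They were lower in 5 of the 22 higher members (9.00%) and higher in 0 by any of these. The count of 63 depended on the tool. DESeq2 called 75 of the 100 lower members higher and limma-voom 33, where 2743 and 1738 of all genes were called higher. The median log2 fold change was 0.90 (-0.83 to 2.66) in lower and -0.55 (-1.50 to -0.04) in higher members. This difference mixes age with exercise and averages the 2 runs, whose separate values are given above. The 68 calls in all (19.8% of all genes) fell to 37, 36, 39 and 33 without unexercised replicates 1, 3, 4 and 5. Over all genes the calls fell as well, from 3390 to 2112, 1861, 2474 and 1992 in the same order. With library totals 32 members were higher and 10 lower, where 911 of all genes were higher and 1657 lower.

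The contrasts that chose the members gave unequal numbers of calls, from which nothing is read. Between exercised 9-week and exercised 27-week livers, 22 of the 22 higher members were called higher (13.1% of all genes tested) and 100 of the 100 lower members lower (17.3%), where 30.4% were called in either direction. Between exercised and unexercised 9-week livers 0 of the 122 passed edgeR's adjusted p of 0.05 in the fit of 3 groups, where 3 of 17118 genes (0.0175%) did, 2 higher (0.0117%) and 1 lower (0.00584%). An unadjusted p under 0.05 was found for 101 members, and the number over all genes at that p is not given here. DESeq2 called 32 members, among 402 genes, and limma-voom 95, among 2150 genes. When only the 9-week libraries were fitted, edgeR called 22 higher and 96 lower members, among 1261 genes, and with the 27-week runs as separate sets it called 109 members, among 1060 genes. The fit of 3 groups counts the distance between the 27-week runs as spread. Between the runs 102 of the 122 members differed, as did 50.4% of all genes tested. The cause of the unequal numbers of calls was not tested.

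The 4 members given by identifier had the largest ratio to the nearest mean among those with a mean of 10 CPM or more. For these ratios 0.5 CPM was added to every mean. The values of all 20 libraries entered this choice. The p-values given for the 4 members are therefore not independent of it, and they are a description. Nfu_g_1_000186, the lower member with the largest ratio, had 3.40, 3.00, 2.61, 4.25 and 3.40 CPM in exercised 9-week replicates 1 to 5. The lower-numbered 27-week libraries had 52.9, 37.0, 44.3, 38.2 and 46.0 CPM, the higher-numbered ones 8.01, 12.4, 28.4, 10.1 and 10.6 CPM, and unexercised 9-week livers 10.8, 11.4, 10.4, 8.15 and 7.93 CPM. The lower-numbered run stood above every other library, and in the higher-numbered run replicates 6, 9 and 10 lay within the range of the unexercised livers and replicates 7 and 8 above it. Its means were 3.33 ± 0.61, 43.7 ± 6.42, 13.9 ± 8.26 and 9.72 ± 1.58 CPM in the same order of sets (SD, n = 5 each). Its ratio to the nearest mean was 2.67 after 0.5 CPM was added to both. It was higher in the lower-numbered run than in the higher-numbered run by 1.62 ± 0.26 on the log2 scale (SE, edgeR adjusted p = 5.6e-05) and than in unexercised livers by 2.15 ± 0.27 (SE, edgeR adjusted p = 2.8e-06). Between the higher-numbered run and unexercised livers the difference was 0.53 ± 0.26 (SE, edgeR adjusted p = 0.17).

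Nfu_g_1_007190, the other lower member, had 2.69, 2.30, 1.88, 2.62 and 3.46 CPM in exercised 9-week replicates 1 to 5. The lower-numbered 27-week libraries had 31.4, 31.1, 33.9, 27.2 and 33.4 CPM, the higher-numbered ones 6.47, 9.99, 15.6, 11 and 12.1 CPM, and unexercised 9-week livers 6.95, 8.61, 5.39, 6.14 and 6.82 CPM. The lower-numbered run again stood above all other libraries, and 4 of the 5 libraries of the higher-numbered run lay above every unexercised one. Its ratio to the nearest mean was 2.36. It was higher by 1.48 ± 0.19 (SE, edgeR adjusted p = 5.1e-06) between the runs and by 2.19 ± 0.20 (SE, edgeR adjusted p = 7.1e-08) between the lower-numbered run and unexercised livers. In the higher-numbered run it was higher than in unexercised livers by 0.71 ± 0.19 (SE, edgeR adjusted p = 0.018).

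Nfu_g_1_020436, the higher member of 10 CPM or more with the largest ratio (2.41), had 45.5, 45.6, 63.1, 42.4 and 28.9 CPM in exercised 9-week replicates 1 to 5. The lower-numbered 27-week libraries had 4.62, 4.69, 5.33, 13.6 and 11.4 CPM, the higher-numbered ones 26.8, 15.4, 12, 10.5 and 10.4 CPM, and unexercised 9-week livers 14.7, 25.2, 20.6, 16.4 and 15.2 CPM. Exercised replicate 5, at 28.9 CPM, was 1.08-fold above 27-week replicate 6. On the log2 scale it was lower in the lower-numbered run than in the higher-numbered run, at -0.95 ± 0.33 (SE; p = 0.021 after edgeR's adjustment), and than in unexercised livers, at -1.23 ± 0.33 (SE; p = 0.0042 after edgeR's adjustment). The higher-numbered run against unexercised livers gave -0.28 ± 0.32 (SE; p = 0.61 after edgeR's adjustment).

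Nfu_g_1_018420, the other higher member, had 59.8, 92.2, 63.7, 78.6 and 63.7 CPM in exercised 9-week replicates 1 to 5. The lower-numbered 27-week libraries had 24.4, 10.2, 34.1, 4.27 and 9.38 CPM, the higher-numbered ones 27.1, 28.7, 18.9, 40.0 and 3.62 CPM, and unexercised 9-week livers 38.5, 22.3, 38.7, 46.7 and 49.4 CPM. The spread within both 27-week runs was wide, and the 3 sets other than the exercised 9-week livers overlapped. It was lower in the lower-numbered run than in unexercised livers, at -1.27 ± 0.50 on the log2 scale (SE; p = 0.042 after edgeR's adjustment). Between the runs the value was -0.55 ± 0.50 (SE, edgeR adjusted p = 0.37) and between the higher-numbered run and unexercised livers -0.71 ± 0.50 (SE, edgeR adjusted p = 0.36).

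**Figure D5:**
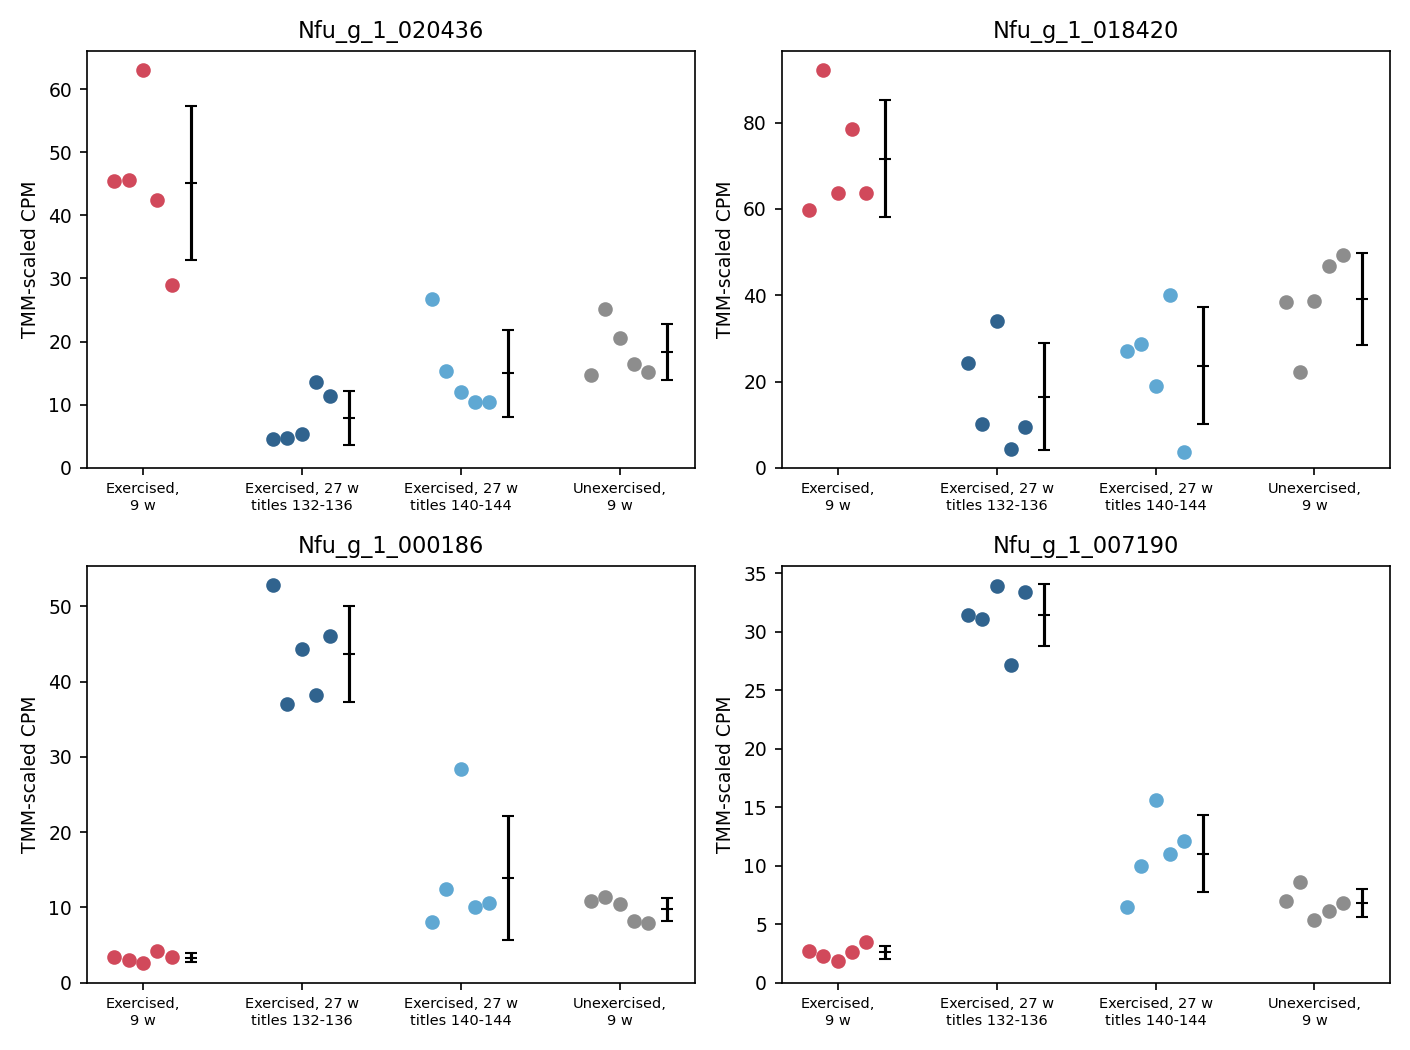
Each panel is 1 of the 4 members given by identifier and each point 1 library, with TMM-scaled CPM on a linear axis from 0. Bars are means and SD of 5 libraries. Nfu_g_1_000186 and Nfu_g_1_007190 (lower row) reach 37.0 CPM or more and 27.2 CPM or more in every library of titles JM132 to JM136, while Nfu_g_1_020436 and Nfu_g_1_018420 (upper row) are highest in exercised 9-week livers.

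Within the range of levels set by the rule, the members had median levels near that of all genes. Their mean over all 20 libraries was 1.16 to 79.1 CPM in lower members (median 11.15) and 1.41 to 120.6 CPM in higher members (median 12.4), beside a median of 10.05 CPM over all 14161 genes within the range. None of the 755 genes of 100 to 1000 CPM was a lower member and 2 were higher members. The lower members made up 45 of 7059 genes of 1 to 10 CPM (0.637%) and 55 of 6347 genes of 10 to 100 CPM (0.867%). Gene length, which the rule did not use, had a median of 2130 bp in lower and 2944 bp in higher members, beside 2868 bp over the 14006 genes of the range that had a value. Lower members were 17 of 2136 genes under 1000 bp (0.796%), 28 of 2799 genes of 1000 to 2000 bp (1%), 34 of 4283 genes of 2000 to 4000 bp (0.794%) and 21 of 4788 genes of 4000 bp or more (0.439%). The median coefficient of variation of lower members was 15.9% in exercised 9-week livers, 15.2% and 23.4% in the lower- and higher-numbered 27-week runs and 17.3% in unexercised 9-week livers. Over all genes of the range it was 16.5%, 23.2%, 19.8% and 18.2% in the same order. For higher members it was 14.4%, 29.9%, 25.5% and 14.9% in that order. The rule limits the spread towards the divide, so these values are a description.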

How the data were processed

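Liver RNA of 20 libraries was made into TruSeq RNA v2 libraries, per the labels' protocols. The authors deposited raw counts for 26739 gene identifiers, and the submitters' processing notes list featureCounts 1.4.6-p4, STAR 2.4.1d and bcl2fastq 1.8.4. Genome build, strand setting and handling of multiply mapped reads: not given in the sources used here. Counts of overlapping or near-identical genes are uncertain for that reason. A second table, deposited as RPKM and treated as a score, has its library totals cycling down the rows and was used for gene lengths alone. The lengths read back varied between libraries by no more than 0.00475% (CV, 3127 genes), against a median of 24.1% if each library's own total is assumed.

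Tests used edgeR 4.0.16 in R 4.3.3 (filterByExpr, TMM, robust quasi-likelihood F-test, two-sided, Benjamini-Hochberg over all 17118 genes tested, threshold 0.05). The 3 label groups were fitted together, and the 27-week runs in a second fit of 4 sets. Standard errors come from the F statistic. The code was tested on simulated data. No 2 libraries of a set agreed within counting noise (lowest chi-square per degree of freedom 44.3 over 40 pairs). Alternatives were DESeq2 1.42.0 and limma 3.58.1 voom, other scalings, filters, folds and pseudocounts, fits of the compared groups only, and each library left out singly. The named members are the 2 of each direction with the largest ratio to the nearest mean among those of 10 CPM or more, the form of the rule for identifiers without symbols. The gene and marker lists, which need symbols, were not run. The members, lists and tests were chosen with earlier results of these data known.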

Additional observations from a re-analysis of the deposited data

Results flagged for a closer look

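A library far from the others of its group was looked for in 40 groups of values and found in 3, where chance gives about 1 in 20. The 22 higher members summed to 662.8 CPM in unexercised 9-week replicate 1, against 558.4 to 578.4 CPM in the other 4 unexercised libraries. Nfu_g_1_020436 had 26.8 CPM in 27-week replicate 6, against 4.62 to 15.4 CPM in the other 9 libraries of that age. Nfu_g_1_000186 had 28.4 CPM in 27-week replicate 8, against 8.01 to 12.4 CPM in the other 4 libraries of the higher-numbered run.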

How the results depend on the processing

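The number of genes that met the rule was 318 (88 higher and 230 lower) at a threshold of 0.32 on the log2 scale, in place of 0.58, and 16 (3 and 13) at a fold of 2, which follows from the threshold. With library totals 3 were higher and 169 lower, and the cause was not tested. With single libraries left out it ranged from 114 to 263 (higher 21 to 63, lower 91 to 200). Between exercised and unexercised 9-week livers 0% of the members were called in the fit of 3 groups, and 0% to 2.46% with single libraries left out (3 members without exercised 9-week replicate 5 or 27-week replicate 5). The share was 26.2% with the DESeq2 Wald test, 77.9% with limma-voom, 96.7% in the fit of the compared groups, 89.3% with the 27-week runs as separate sets and 4.1% without 27-week replicates 4 and 5, the last 2 settings being chosen after seeing the data. Over all genes these 5 settings called 402, 2150, 1261, 1060 and 73. The 68 calls between 27-week and unexercised 9-week livers were 42 with library totals, 42 with limma-voom and 44 in the fit of the compared groups. Over all genes 3390 were called in the fit of 3 groups, and 2568, 3731 and 2240 in these settings. With single libraries left out, 33 to 89 members were called, among 1992 and 4228 genes at the 2 ends. The 20 calls between the higher-numbered run and unexercised livers were 10 to 28 with single libraries left out, among 1539 and 2661 genes at the 2 ends. The cause was not tested. The total counts of members called for the lower-numbered run stayed within 1.5 times in all alternatives run, while those called lower between the runs were 14, and 7 with library totals. The log2 ratio of Nfu_g_1_000186 to its nearest mean was -1.41, and -1.64 with library totals. No paired analysis was possible because the labels give no pairing and replicate numbers only name libraries.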
